A study of Mus musculus with 9 samples.

Results

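Linker histone H1 genes are 7 of the 21883 genes in the expression table and were taken by symbol: *Hist1h1a*, *Hist1h1b*, *Hist1h1c*, *Hist1h1d*, *Hist1h1e*, *H1f0* and *H1fx*. RNA was sequenced from FACS-sorted thymic iNKT cells, T cells with an invariant antigen receptor that recognizes glycolipids, in 9 libraries of C57BL/6 mice. The 3 groups of 3 libraries each were WT stage 2 (CD24 low, CD44 high, NK1.1 low), WT stage 3 (CD24 low, CD44 high, NK1.1 high) and *Med23*-deficient stage 2 cells. WT mice were 6 weeks old and carried no *Med23* deletion, and the deficient mice carried a conditional *Med23* deletion driven by the CD4 promoter, which acts in T cells from the double-positive thymocyte stage on. The labels do not give the age of the deficient mice, nor whether replicates came from separate animals. They name no batch, and the sample records of the deficient libraries are numbered apart from the WT ones. A difference in preparation or sequencing between the genotypes, if there was one, cannot be told apart from the deletion. The methods call the sequencing data representative of independent experiments but tie no library to an experiment or animal, so the p-values measure the spread between these libraries, which may be in part technical.

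H1 proteins bind the nucleosome where DNA enters and leaves it and the linker DNA next to it, and help fold chromatin. *Hist1h1a* to *Hist1h1e* are replication-dependent genes: they have no introns, lie among the core histone genes, are transcribed mostly in S phase, and their mRNAs typically end in a stem-loop in place of a poly(A) tail. *H1f0* and *H1fx* lie apart from that cluster and give polyadenylated mRNA, and *H1f0* is known as the H1 that accumulates in cells that have stopped dividing.

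For description the members are set in 3 patterns, which were drawn from the fold changes themselves. Differences between members were not tested. *Hist1h1a*, *Hist1h1b* and *Hist1h1d* were lower than in WT stage 2 cells both in WT stage 3 cells, by 1.31 to 2.55 on the log2 scale, and in *Med23*-deficient stage 2 cells, by 1.55 to 4.44. *Hist1h1c* and *Hist1h1e*, the most abundant members in stage 3, were lower by 0.08 and 0.30 at stage 3 and by 0.89 and 1.06 in deficient stage 2 cells. *H1f0* fell by 1.10 at WT stage 3 and stayed near its WT stage 2 level in deficient cells. *H1fx* was listed at 0 in 7 of 9 libraries.

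*Hist1h1a* to *Hist1h1e* lie on chromosome 13 in mm10, where each deposited model is a single stretch. *Hist1h1b* (ENSMUSG00000058773, chr13:21779883-21780625, minus strand) stands alone in the first part of the histone cluster, 1984 kb from the start of *Hist1h1a*. The other four lie within 209 kb of the start of *Hist1h1a*: *Hist1h1d* (ENSMUSG00000052565, chr13:23555087-23555830, plus strand), *Hist1h1e* (ENSMUSG00000051627, chr13:23621755-23622502, minus strand), *Hist1h1c* (ENSMUSG00000036181, chr13:23738808-23740367, plus strand) and *Hist1h1a* (ENSMUSG00000049539, chr13:23763717-23764358, plus strand). *H1f0* (ENSMUSG00000096210, chr15:79028212-79030498, plus strand) and *H1fx* (ENSMUSG00000044927, chr6:87980421-87981637, minus strand) are on chromosomes 15 and 6.

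The promoter windows at the RefSeq starts differed between the clustered genes and *H1f0*. The 130 bases before each RefSeq start (GRCm38.p6, the mm10 build) are printed 5′ to 3′ for the 6 expressed members, with every match to the H1 box (AAACACA), the CAAT box (CCAAT) and the TATA box (TATAAA, or in a second form that can overlap the first, TATATA) on either strand in capitals.
Hist1h1a, chr13:23763538-23763667, plus strand: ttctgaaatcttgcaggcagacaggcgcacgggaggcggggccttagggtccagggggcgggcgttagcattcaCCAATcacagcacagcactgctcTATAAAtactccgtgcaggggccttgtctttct
Hist1h1b, chr13:21780626-21780755, minus strand: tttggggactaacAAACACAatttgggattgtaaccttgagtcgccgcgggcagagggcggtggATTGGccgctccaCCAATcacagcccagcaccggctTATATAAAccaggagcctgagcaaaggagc
Hist1h1d, chr13:23554902-23555031, plus strand: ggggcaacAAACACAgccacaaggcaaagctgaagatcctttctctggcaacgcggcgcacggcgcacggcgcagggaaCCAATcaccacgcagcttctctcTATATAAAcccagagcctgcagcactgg
Hist1h1c, chr13:23738677-23738806, plus strand: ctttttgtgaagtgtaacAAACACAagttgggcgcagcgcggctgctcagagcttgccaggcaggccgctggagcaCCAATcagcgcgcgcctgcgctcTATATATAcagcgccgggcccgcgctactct
Hist1h1e, chr13:23622559-23622688, minus strand: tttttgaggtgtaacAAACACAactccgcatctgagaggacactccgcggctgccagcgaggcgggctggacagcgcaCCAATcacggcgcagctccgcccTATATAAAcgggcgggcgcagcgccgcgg
H1f0, chr15:79028082-79028211, plus strand: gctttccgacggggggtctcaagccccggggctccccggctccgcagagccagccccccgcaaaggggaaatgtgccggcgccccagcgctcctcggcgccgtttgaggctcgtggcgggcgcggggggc

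*Hist1h1b*, *Hist1h1c*, *Hist1h1d* and *Hist1h1e* held AAACACA 112 to 122 bases before the start, and all 5 clustered genes held CCAAT 51 to 56 bases before it and a TATA motif 26 to 33 bases before it. Neither *H1f0* nor *H1fx* held any of the 4 motifs in the RefSeq window of 250 bases before to 50 after the start. In windows of that length AAACACA was found in 7.18% of 32851 promoters and in 4 of the 56 core histone promoters that could be matched, CCAAT in 37.4% and 83.9%, TATAAA in 13.6% and 55.4%, and TATATA in 5.67% and 19.6%. These matches are letters in a window and not measured binding. The TATA form differed within the cluster: *Hist1h1b*, *Hist1h1d* and *Hist1h1e* held both TATAAA and TATATA, *Hist1h1a* held TATAAA alone, and *Hist1h1c* held TATATA alone. The start of *H1f0* is 79028212 in RefSeq and the deposited model but 79028450 in GENCODE vM21, so its window depends on that choice. The bases just before the vM21 start were not searched, so the absence of motifs in *H1f0* holds for the RefSeq start alone. For *H1fx* the 130 bases before the RefSeq start (chr6:87981483-87981612, minus strand) lie inside the deposited and vM21 models, which begin at 87981637. The absence of motifs in *H1fx* thus also depends on the choice of start.

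The stem-loop that ends replication-dependent histone mRNA was searched by its degenerate consensus, on the sense strand, in the GENCODE vM21 transcripts of the members. It is shown in capitals with 5 bases on each side for the members where it was found.
Hist1h1c, 24 bases after the stop codon, chr13:23739512-23739527: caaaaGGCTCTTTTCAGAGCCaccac
Hist1h1d, 31 bases after the stop codon, chr13:23555787-23555802: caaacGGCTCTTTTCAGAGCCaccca
Hist1h1e, 40 bases after the stop codon, chr13:23621782-23621797, minus strand: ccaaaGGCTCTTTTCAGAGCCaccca
The stem-loop letters were the same in the 3 genes and lay inside their deposited models, and no match was found in *H1f0* or *H1fx*. The deposited models of *Hist1h1a* and *Hist1h1b* both end with the stop codon. The vM21 transcript of *Hist1h1b* ends there too, and that of *Hist1h1a* ends within the same letters, after the first 15 of them, so neither transcript could hold a whole match.

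Levels were compared as FPKM, fragments scaled to the length of the gene model and to the mapped fragments of the library. Genes of different length can be set side by side only where the model matches the mRNA. The deposited model of *Hist1h1c* has 1560 bases, 880 of them after the stop codon, where the other 4 clustered genes have 642 to 748 bases. If its mRNA ended at the stem-loop, the FPKM of *Hist1h1c* would be too low beside the others, which was not tested. In every group *Hist1h1e* had the highest FPKM of the H1 genes, with 232 ± 23.8 in WT stage 2, 188 ± 14.3 in WT stage 3 and 111 ± 12.1 in *Med23*-deficient stage 2 cells (mean ± SD, n = 3 each), and in none of them did its libraries overlap those of the next member. At WT stage 2 *Hist1h1d* (112 ± 20.9) and *Hist1h1c* (105 ± 19.1) came next with overlapping libraries, then *Hist1h1b* (36.2 ± 15.8), *Hist1h1a* (25.1 ± 11.4) and *H1f0* (19.2 ± 4.10), each overlapping its neighbour. At WT stage 3 *Hist1h1c* (99.8 ± 19.5) stood above *Hist1h1d* (44.8 ± 11.9) without overlap, and *H1f0* (8.31 ± 0.351), *Hist1h1b* (6.89 ± 7.56) and *Hist1h1a* (6.62 ± 2.06) followed with overlapping values. In deficient stage 2 cells the order was *Hist1h1e*, *Hist1h1c* (55.9 ± 5.27), *Hist1h1d* (37.7 ± 9.45) and *H1f0* (21.8 ± 4.64) with no overlap between neighbours, and then *Hist1h1a* (2.32 ± 2.45) and *Hist1h1b* (0.707 ± 0.819), which overlapped. *H1f0* thus had the sixth place at WT stage 2 and the fourth, above *Hist1h1a* and *Hist1h1b*, in the deficient cells.

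**Figure D1:**
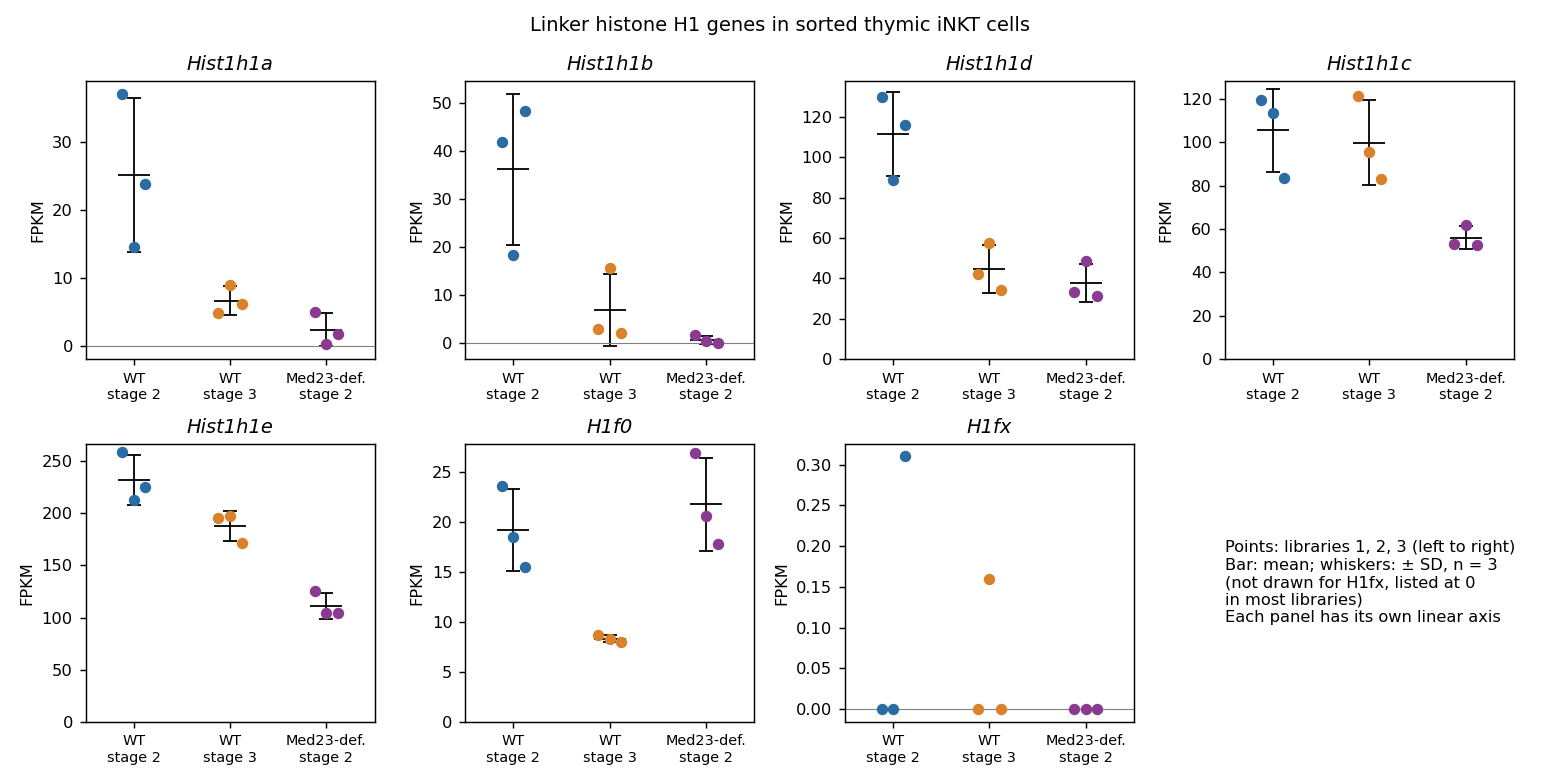
FPKM of the 7 H1 genes in each library (points), by group, with the mean and SD of 3 libraries; each panel has its own linear axis, and H1fx is shown as single values. All WT stage 2 points of Hist1h1a, Hist1h1b and Hist1h1d lie above those of both other groups, the deficient points of Hist1h1c and Hist1h1e lie below all WT points, and H1f0 is lowest in WT stage 3.

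Reads from similar members can be divided between them. The coding sequences of *Hist1h1d* and *Hist1h1e* were 83.9% identical, those of *Hist1h1c* and *Hist1h1d* 83.0% and those of *Hist1h1c* and *Hist1h1e* 80.6%, against 68.7% to 71.8% for *Hist1h1a* with the other clustered genes and 54.2% to 55.5% for *H1f0* with them. Of all 50-base windows of the deposited model, 23.5% in *Hist1h1d*, 22.2% in *Hist1h1e* and 8.54% in *Hist1h1c* occurred also in another of these 3 genes, and none in *Hist1h1a* or *Hist1h1b* occurred in another gene. The levels of *Hist1h1c*, *Hist1h1d* and *Hist1h1e* are to that extent uncertain. In *H1f0* 5.70% of windows recurred in *Gm49544*, and in *H1fx* 14.0% recurred in the overlapping *Gm5577*.

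Marker genes matched the labels in part. NK1.1 (*Klrb1c*) was at 7.65 to 26.2 FPKM in WT stage 2, 57.3 to 95.1 in WT stage 3 and 2.61 to 4.6 in deficient cells. The 2 stage 2 groups thus differed in this marker. The 6 listed iNKT cell genes summed to 663 to 759 FPKM in every library, but that sum hides opposite changes. At stage 3 against WT stage 2, 1 of the 6 was higher and 2 were lower by a limma adjusted p of at most 0.05. Of all 20689 genes tested, 157 were higher and 189 lower by that rule. Between deficient and WT stage 2 cells none of the 6 passed it. Of 5 listed stage 3 genes, 3 were lower in deficient than WT stage 2 cells without overlap, beside 8.37% of all genes, while the sum of all 5 overlapped. The part of this in the H1 differences was not tested. *Med23* was at 5.15 to 6.74, 4.44 to 7.14 and 3.6 to 4.8 FPKM in the 3 groups, a gene-level value that includes any exons left in place by the deletion. The deficient values lay below WT stage 2 but overlapped WT stage 3, so they do not by themselves show the deletion. Markers of other cells were low throughout: 6 double-positive thymocyte genes summed to 0.95 to 4.99 FPKM, the 2 B cell genes in the table (*Cd79a* and *Cd79b*, listed at 0 in 8 and 7 libraries) to at most 0.50, the 6 models of 5 myeloid genes to 0.58 to 6.19, and the erythroid *Hbb-bs* was at most 0.75. The myeloid sum was highest at stage 3, 2.61 to 6.19 FPKM, where *Fcgr3*, which NK cells also express, made up most of it in all 3 libraries. Its part in the H1 results was not tested. Depth is unknown, since the table holds no counts. The number of genes above 0 was 15584 to 17333 per library, and the noncoding *Gm23935* held 62.2% to 71.9% of the summed FPKM.

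The first comparison asked how H1 expression differs between WT stage 2 and stage 3, the last step of iNKT cell maturation. *Hist1h1a*, *Hist1h1b*, *Hist1h1d* and *H1f0* fell, where falling or rising means a fold change of at least 2 and a limma p, before adjustment, of 0.05 or less, the thresholds of the study. That is 4 of 7 members, beside 1.9% of the 20689 genes tested that fell by the same rule. All 3 stage 3 libraries lay below all stage 2 libraries in 5 of 7 members, beside 10.4% of all genes, and the median log2 fold change was -1.10 over the members and -0.01 over all genes. In bulk RNA, fewer cells with a transcript and less transcript per cell cannot be told apart.

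At WT stage 2 the 3 libraries held 41.9, 18.4 and 48.4 FPKM of *Hist1h1b*, and at WT stage 3 they held 3.03, 15.6 and 2.03. Its log2 fold change on the log2(FPKM + 1) scale was -2.55 (SE 0.71, limma adjusted p = 0.186). The groups did not overlap, but stage 3 replicate 2 came close to the lowest stage 2 library, and without it the difference was -3.30 (limma adjusted p = 0.0817).

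*Hist1h1a* was at 37.1, 14.5 and 23.8 FPKM at stage 2 and at 4.83, 8.88 and 6.16 at stage 3. The stage 2 libraries differed among themselves by more than the stage 3 libraries did, yet all of them were above every stage 3 library, with a log2 fold change of -1.72 (SE 0.37, limma adjusted p = 0.0983). *Hist1h1d*, the most abundant of these 3 genes, was at 130, 89.0 and 116 FPKM at stage 2 and at 42.4, 57.7 and 34.3 at stage 3 (log2 fold change -1.31, SE 0.23, limma adjusted p = 0.0572). As with *Hist1h1a* and *Hist1h1b*, replicate 2 was the highest stage 3 library and the lowest stage 2 library. These 3 falls thus met the fold and unadjusted thresholds but not the adjusted one.

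*Hist1h1e* and *Hist1h1c* moved less. *Hist1h1e* was at 259, 213 and 225 FPKM at stage 2 and at 195, 197 and 172 at stage 3, lower without overlap but with a log2 fold change of only -0.30 (SE 0.11, limma adjusted p = 0.326). *Hist1h1c* was at 119, 113 and 83.6 FPKM at stage 2 and at 121, 95.4 and 82.9 at stage 3. Its libraries overlapped fully, and the 95% interval of its log2 fold change, -0.55 to 0.40 around -0.08, leaves room for a decrease or an increase of a smaller size than the falls above. The sign of that value turned with the scaling of the libraries.

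*H1f0* was at 23.6, 18.5 and 15.5 FPKM at stage 2 and at 8.67, 8.28 and 7.97 at stage 3. The stage 3 libraries were close together and well below the lowest stage 2 library, with a log2 fold change of -1.10 (SE 0.16). It was the only member past an adjusted p of 0.05 in this comparison (limma adjusted p = 0.0420, where 0.914% of genes fell by that rule). The call was lost when any 1 of the 6 libraries was left out (limma adjusted p from 0.0715 to 0.141), as the number of genes called over the whole table dropped from 346 to between 22 and 137. Without stage 2 replicate 1 the change was -0.95, under the fold threshold.

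**Figure D2:**
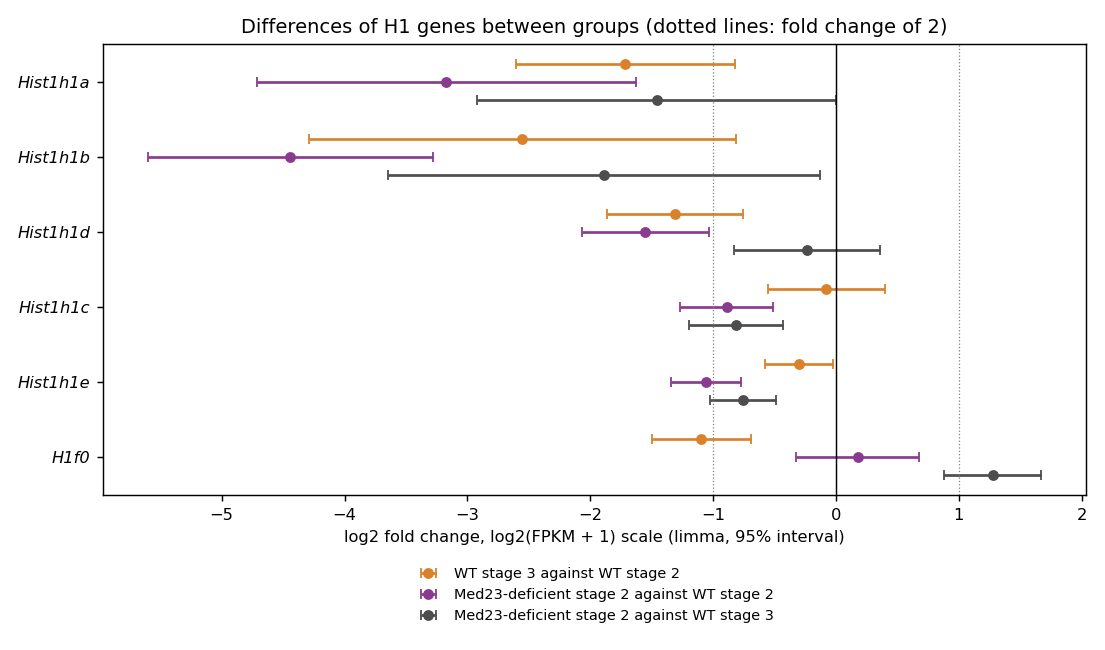
Log2 fold change on the log2(FPKM + 1) scale (points) with its 95% interval (limma) for 6 H1 genes in the 3 comparisons; dotted lines mark a fold change of 2. Hist1h1a, Hist1h1b and Hist1h1d lie left of 0 in both comparisons with WT stage 2. All 5 replication-dependent genes are furthest left in deficient cells against WT stage 2. Against WT stage 2, H1f0 is at -1.10 in stage 3 but 0.17 in deficient cells.

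The comparison of *Med23*-deficient with WT stage 2 cells asked what differs at the same labelled stage when *Med23*, a subunit of the Mediator complex that links transcription factors to RNA polymerase II, is deleted. All 5 replication-dependent H1 genes were lower in every deficient library than in every WT library, beside 8.37% of all genes, and 4 of 7 members (*Hist1h1a*, *Hist1h1b*, *Hist1h1d* and *Hist1h1e*) fell by the fold and unadjusted thresholds, beside 1.32% of the 20674 genes tested. The member median was -1.06 and that of all genes -0.01. *H1f0* and the barely detected *H1fx* overlapped between the groups.

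*Hist1h1b* was at 1.63, 0.42 and 0.07 FPKM in the deficient libraries, where the lowest WT stage 2 library held 18.4. The log2 fold change of -4.44 (SE 0.48) passed the adjusted threshold (limma adjusted p = 0.0415, beside 0.145% of genes that fell by this rule). *Hist1h1a* was at 5, 0.2 and 1.76 FPKM, which is lower than in any WT stage 2 library but more variable on the log scale, with a log2 fold change of -3.17 (SE 0.63, limma adjusted p = 0.166). Both genes were under 2 FPKM in at least 2 deficient libraries, and their log2 fold changes depended on the pseudocount of 1: with 0.01 they were -6.44 for *Hist1h1b* and -4.25 for *Hist1h1a*. *Hist1h1d* was at 33.2, 48.6 and 31.4 FPKM, with a log2 fold change of -1.55 (SE 0.21, limma adjusted p = 0.0719).

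*Hist1h1e* was at 125, 104 and 104 FPKM in deficient cells, and all 3 values lay below the lowest WT value of either stage. Its log2 fold change against WT stage 2 was -1.06 (SE 0.12, limma adjusted p = 0.0472), with the smallest error among the 6 expressed members. *Hist1h1c* was at 53.2, 62.0 and 52.5 FPKM, again below every WT library of either stage, with a log2 fold change of -0.89 (SE 0.16, limma adjusted p = 0.122), short of a fold of 2. Without WT stage 2 replicate 3, its lowest library in that group, *Hist1h1c* reached -1.05, and without WT stage 2 replicate 1 *Hist1h1e* came to -0.98.

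*H1f0* was at 26.9, 20.7 and 17.8 FPKM in the deficient cells, a range that overlaps that of WT stage 2. The log2 fold change was 0.17 (SE 0.21, limma adjusted p = 0.777, 95% interval -0.33 to 0.68), and its sign turned to -0.088 in a Ballgown-style fit per gene. That fit shares no variance across genes and adds a term for the summed log expression of each library below its upper quartile. The limma interval excludes a fall of the size seen at WT stage 3. The adjusted calls of *Hist1h1b* and *Hist1h1e* were lost when any 1 of the 6 libraries was left out, with limma adjusted p from 0.0753 to 0.148 and from 0.0993 to 0.171, while the count over the whole table went from 44 to between 1 and 8.

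Set against WT stage 3 directly, the deficient stage 2 cells differed in genotype and stage at once, and this comparison shares its libraries with the other two. Its answer is which members distinguish the 2 groups that both had low *Hist1h1a*, *Hist1h1b* and *Hist1h1d*. *H1f0* rose and *Hist1h1b* fell, 2 of 7 members beside 2.86% of 20846 genes in either direction, and *Hist1h1e* and *H1f0* passed an adjusted p of 0.05, beside 1.33% of genes.

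For *H1f0* the log2 fold change was 1.27 (SE 0.16, limma adjusted p = 0.0266), and every deficient library held at least 17.8 FPKM where no stage 3 library held more than 8.67. *Hist1h1e* was lower in the deficient cells by -0.76 (SE 0.11, limma adjusted p = 0.0408) and *Hist1h1c* by -0.81 (SE 0.16, limma adjusted p = 0.0956), both without overlap. *Hist1h1d* overlapped between the groups, with a log2 fold change of -0.24 and a 95% interval of -0.83 to 0.36. *Hist1h1a* also overlapped (-1.46, SE 0.60, limma adjusted p = 0.490), and *Hist1h1b* did not (-1.89, SE 0.72, limma adjusted p = 0.443). In all, 4 of 7 members did not overlap, beside 14.2% of genes.

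These differences rested on few libraries. The adjusted call of *Hist1h1e* was lost without any 1 library (limma adjusted p from 0.0634 to 0.154), and that of *H1f0* held only without deficient replicate 3 (0.0385) and otherwise came to between 0.0524 and 0.110. The fall of *Hist1h1b* did not pass the unadjusted threshold without WT stage 3 replicate 2 (-1.14), deficient replicate 2 (-1.81) or deficient replicate 3 (-1.60). That of *Hist1h1a*, just short of the threshold, passed it without deficient replicate 1 (-2.03).

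The composition of the H1 pool followed from these levels. The 7 members summed to 611, 466 and 513 FPKM in the WT stage 2 libraries, 375, 383 and 305 at stage 3 and 245, 236 and 208 in deficient stage 2 cells, with no overlap between groups. *Hist1h1a*, *Hist1h1b* and *Hist1h1d* together gave 209, 122 and 188 FPKM at WT stage 2, 50.3, 82.2 and 42.5 at stage 3 and 39.8, 49.2 and 33.2 in deficient cells. The sum of *Hist1h1c* and *Hist1h1e* was 308 to 378 FPKM at WT stage 2, 255 to 316 at stage 3 and 156 to 178 in deficient cells, so it overlapped between the WT stages and was lowest in the deficient cells.

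*Hist1h1e* held 42.4% to 45.6% of the summed H1 FPKM at WT stage 2, 51.5% to 56.3% at stage 3 and 44.1% to 51.0% in deficient cells. *H1f0* held 3.86%, 3.97% and 3.02% at WT stage 2, 2.31%, 2.16% and 2.61% at stage 3 and 11.0%, 8.75% and 8.59% in deficient cells, its highest share in all 3 deficient libraries. Per unit of *H1f0*, the replication-dependent H1 genes summed to 24.2 to 32.1 units at WT stage 2, 37.3 to 45.3 at stage 3 and 8.10 to 10.6 in deficient cells. *Hist1h1d* per unit of *Hist1h1e* was 0.42 to 0.52, 0.20 to 0.29 and 0.27 to 0.47 in the same order. These sums, shares and ratios rest on the model lengths, that of *Hist1h1c* among them. They are of mRNA and say nothing of the protein.

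**Figure D3:**
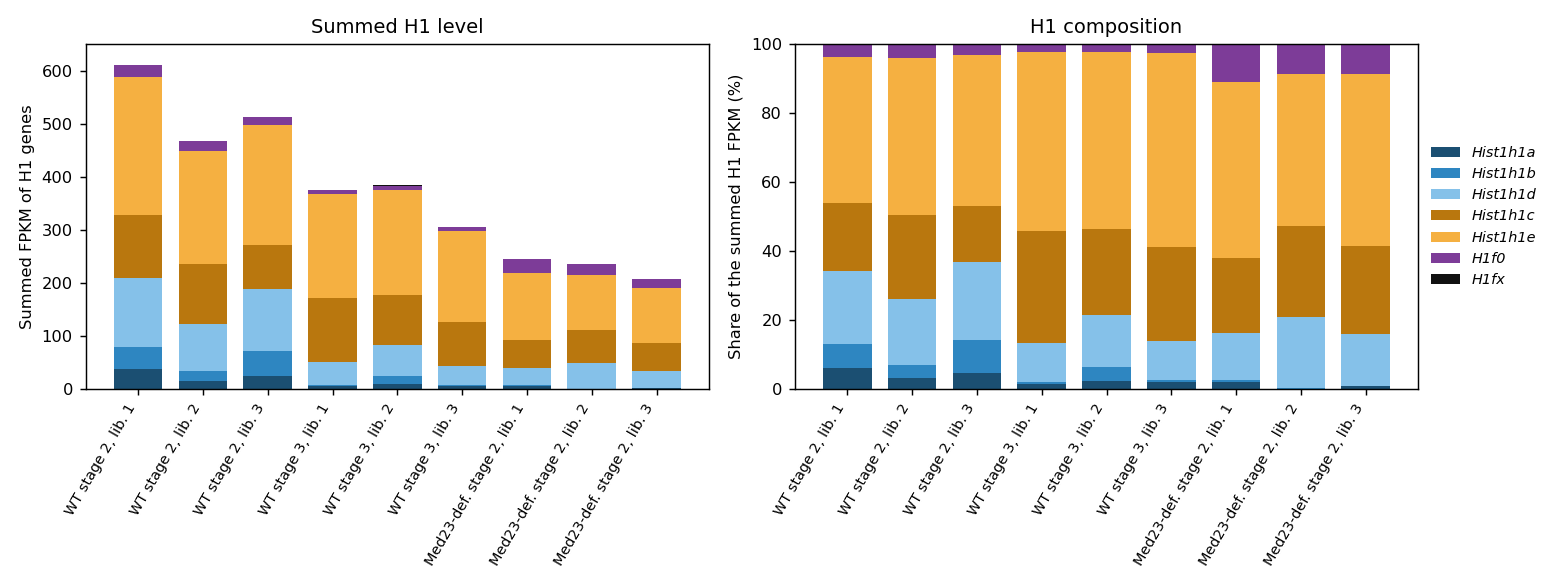
Summed FPKM of the 7 H1 genes (left, stacked bars) and the share of each in that sum in percent (right) for the 9 libraries. The summed level falls from 466 to 611 FPKM in WT stage 2 to 208 to 245 in deficient cells, where the H1f0 segment widens to between 8.59% and 11.0%.

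Genes of cell division moved with the first of the 3 patterns. Among 20 mitosis genes, 13 fell at WT stage 3 and 11 in deficient stage 2 cells, beside 1.9% and 1.32% of all genes, and none rose. Their median log2 fold changes were -1.27 and -1.18, where the median over all genes was -0.01 in both comparisons. *Mki67*, the proliferation marker Ki-67, went from 22.3, 29.7 and 34.8 FPKM at WT stage 2 to 2.25, 7.47 and 1.69 at stage 3 (log2 fold change -2.81, limma adjusted p = 0.0490) and 4.05, 2.09 and 2.89 in deficient cells (-2.91, limma adjusted p = 0.0301). *Ccnb2*, a mitotic cyclin, changed by -2.77 in deficient cells (limma adjusted p = 0.0367), and *Birc5* (survivin) and the checkpoint kinase *Bub1* by -1.62 and -0.87 at stage 3 (limma adjusted p = 0.0445 and 0.0195).

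The summed mitosis genes were at 72.4, 70.5 and 91.2 FPKM in WT stage 2, 7.76, 20.3 and 6.72 in WT stage 3, and 11.0, 12.1 and 11.3 in deficient cells. WT stage 3 replicate 2 had the highest mitosis sum of its group and also the highest *Hist1h1a*, *Hist1h1b* and *Hist1h1d*. At WT stage 2 replicate 3 had the highest mitosis sum and the highest *Hist1h1b*, but *Hist1h1a* and *Hist1h1d* were highest in replicate 1. Replicate 2 of that group had the lowest mitosis sum and the lowest *Hist1h1a*, *Hist1h1b* and *Hist1h1d*. The deficient mitosis sums lay close together, and replicate 2, the highest of them, had the highest *Hist1h1d* and the lowest *Hist1h1a*. Between groups, WT stage 3 and deficient cells had low mitosis sums but *Hist1h1e* of 172 to 197 against 104 to 125 FPKM. *H1f0* was likewise at 7.97 to 8.67 in the one and 17.8 to 26.9 in the other. Between these 2 groups no mitosis gene passed the fold and p thresholds in limma (1 by p alone, and 2 by p alone in the fit per gene), with a median of 0.03. The part of dividing cells in the H1 differences was not tested.

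**Figure D4:**
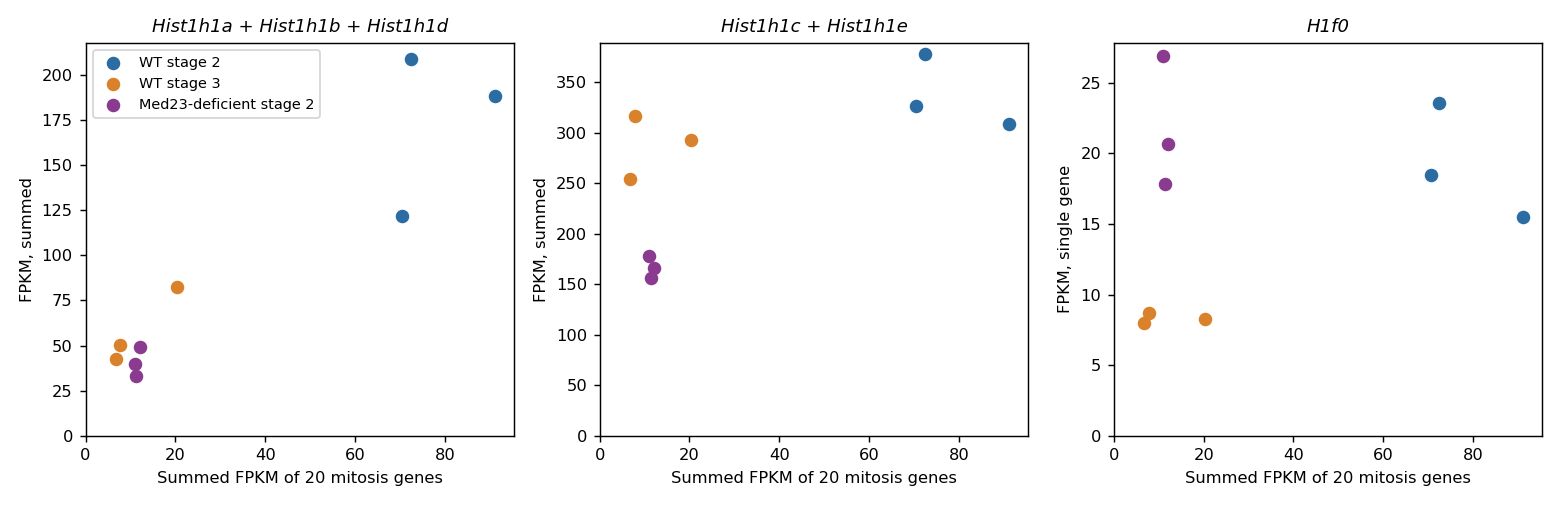
Summed FPKM of Hist1h1a, Hist1h1b and Hist1h1d (left), of Hist1h1c and Hist1h1e (middle) and FPKM of H1f0 (right) against the summed FPKM of 20 mitosis genes; each point is 1 library. WT stage 3 and deficient libraries share the low end of the x axis (6.72 to 20.3) but are apart in the middle and right panels.

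DNA replication genes showed smaller but broad differences. Of 28, 4 fell at stage 3 and 3 in deficient cells, beside 1.9% and 1.32% of all genes, with medians of -0.55 and -0.64. Of the same genes 27 and 28 had log2 fold changes below 0, and 13 and 20 were lower without overlap, beside 10.4% and 8.37% of all genes. For genes of few FPKM the log2(FPKM + 1) scale shrinks the fold change. *Mcm3*, part of the replicative helicase, was at 28.5 to 31.5 FPKM at WT stage 2, 13.1 to 20.6 at stage 3 and 15.5 to 17.0 in deficient cells (-0.84 against WT stage 2, limma adjusted p = 0.0427). *Pcna*, the sliding clamp of the replication fork and the most abundant of the list, was at 32.3 to 34.4, 25.5 to 32.4 and 16.4 to 18.1 FPKM. It was thus close to its stage 2 level at WT stage 3 (-0.21, limma adjusted p = 0.480) and lower in deficient cells (-0.92, limma adjusted p = 0.0304), side by side with *Hist1h1e* at -0.30 and -1.06.

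Genes of the machinery that makes histone mRNA differed by small amounts. The 12 listed genes summed to 110 to 117 FPKM at WT stage 2, 101 to 104 at stage 3 and 91.6 to 97.5 in deficient cells, with no overlap between groups. In deficient cells 3 of them were lower and 1 higher than in WT stage 2 without overlap, beside 1731 and 1164 of 20674 genes. None of 12 genes for transcription and 3′ end formation of replication-dependent histone mRNA rose or fell in limma in any of the 3 comparisons (0, 2 and 0 by p alone, and 1 in each by p alone in the fit per gene), with medians of -0.02, -0.07 and -0.07 for stage 3 against stage 2, deficient against WT stage 2 and deficient against stage 3. *Slbp*, which binds the stem-loop printed above, was at 9.08 to 13.4 FPKM at WT stage 2, 9.90 to 12.95 at stage 3 and 8.61 to 10.9 in deficient cells. *Npat*, the coactivator at histone gene clusters, was at 5.60 to 7.45, 4.17 to 6.55 and 4.06 to 5.40 FPKM (log2 fold change in deficient cells -0.38, limma adjusted p = 0.591). *Cpsf3*, the endonuclease that cleaves histone pre-mRNA and the most abundant of the list, was at 43.0 to 48.2, 36.0 to 44.9 and 29.9 to 40.1 FPKM. *Slbp* and *Npat* were named for their roles, after their values were seen.

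Genes of proteins that chaperone H1 or compete with it for nucleosomes were lower to a smaller degree. In each comparison with WT stage 2, 7 of 10 were lower without overlap, beside 10.4% of all genes at stage 3 and 8.37% in deficient cells. Of 10 genes, 1 fell at stage 3 and none in deficient cells in limma (8 by p alone there, and 1 by fold and p in the fit per gene), with medians of -0.48 and -0.56. The gene that fell was *Hmgn2*, a nucleosome-binding protein that competes with H1, at 15.5, 16.0 and 21.1 FPKM at stage 2 and 9.21, 7.35 and 7.89 at stage 3 (-1.01, limma adjusted p = 0.0461). *Ptma*, prothymosin alpha, an acidic protein that binds H1, was the most abundant, with 274 to 376 FPKM at WT stage 2, 156 to 299 at stage 3 and 199 to 311 in deficient cells, which overlapped.

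The core histones of the nucleosome itself offer the closest comparison. Of 64 replication-dependent core histone genes, 17 fell at stage 3, with a median of -0.79, beside 1.9% of all genes. In deficient cells 35 of 63 tested fell, with a median of -1.36, beside 1.32% of all genes. The median over all genes was -0.01 in both comparisons. Their summed FPKM was 1776 to 2443 at WT stage 2, 1197 to 1495 at stage 3 and 835 to 1042 in deficient cells. The replication-dependent H1 genes thus shared their direction with most core histone genes, while *H1f0* was at 0.17 in deficient cells. *Hist1h1b* had the lowest log2 fold change of all histone genes on chromosome 13 in both comparisons with WT stage 2. Past the adjusted threshold in deficient cells were *Hist1h2ae* (-3.33, limma adjusted p = 0.0301), *Hist1h2bb* (-2.68, 0.0415), *Hist1h2ak* (-2.53, 0.0304), *Hist1h2ac* (-1.76, 0.0170) and *Hist1h2bg* (-1.75, 0.0301), all genes of H2A or H2B. *Hist2h2aa2*, an H2A gene outside that cluster and the most abundant core histone gene, changed by -0.29 at stage 3 and -0.82 in deficient cells (limma adjusted p = 0.456 and 0.0975).

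All 10 core histone genes next to an H1 gene in the cluster had log2 fold changes below 0 in deficient cells against WT stage 2, from -0.01 to -3.08, and 9 of 10 at stage 3. Of all replication-dependent core histone genes tested, 59 of 63 were below 0 in deficient cells and 56 of 64 at stage 3. *Hist1h1b* lay 25.8 kb from the H2B gene *Hist1h2bn*, at -2.05 at stage 3 and -3.08 in deficient cells, and 3.08 kb from the H3 gene *Hist1h3i*, at -0.05 and -1.41. *Hist1h1d* (-1.31 and -1.55) had *Hist1h4f* (-1.63 and -1.77) and *Hist1h3e* (-0.37 and -1.06) beside it. *Hist1h1e* (-0.30 and -1.06) lay between *Hist1h2be* (0.13 and -0.01) and *Hist1h2ac* (-0.92 and -1.76). The genes next to *Hist1h1c* (-0.08 and -0.89) were *Hist1h4c* (-0.10 and -0.53) and *Hist1h3c* (-1.15 and -2.24), and those next to *Hist1h1a* (-1.72 and -3.17) were *Hist1h3a* (-0.96 and -1.36) and, 170 kb away, *Hist1h2ba* (-0.29 and -0.41). Of these 10 neighbours, *Hist1h2ac* in deficient cells was the one with a limma adjusted p of at most 0.05. Differences between neighbours were not tested.

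**Figure D5:**
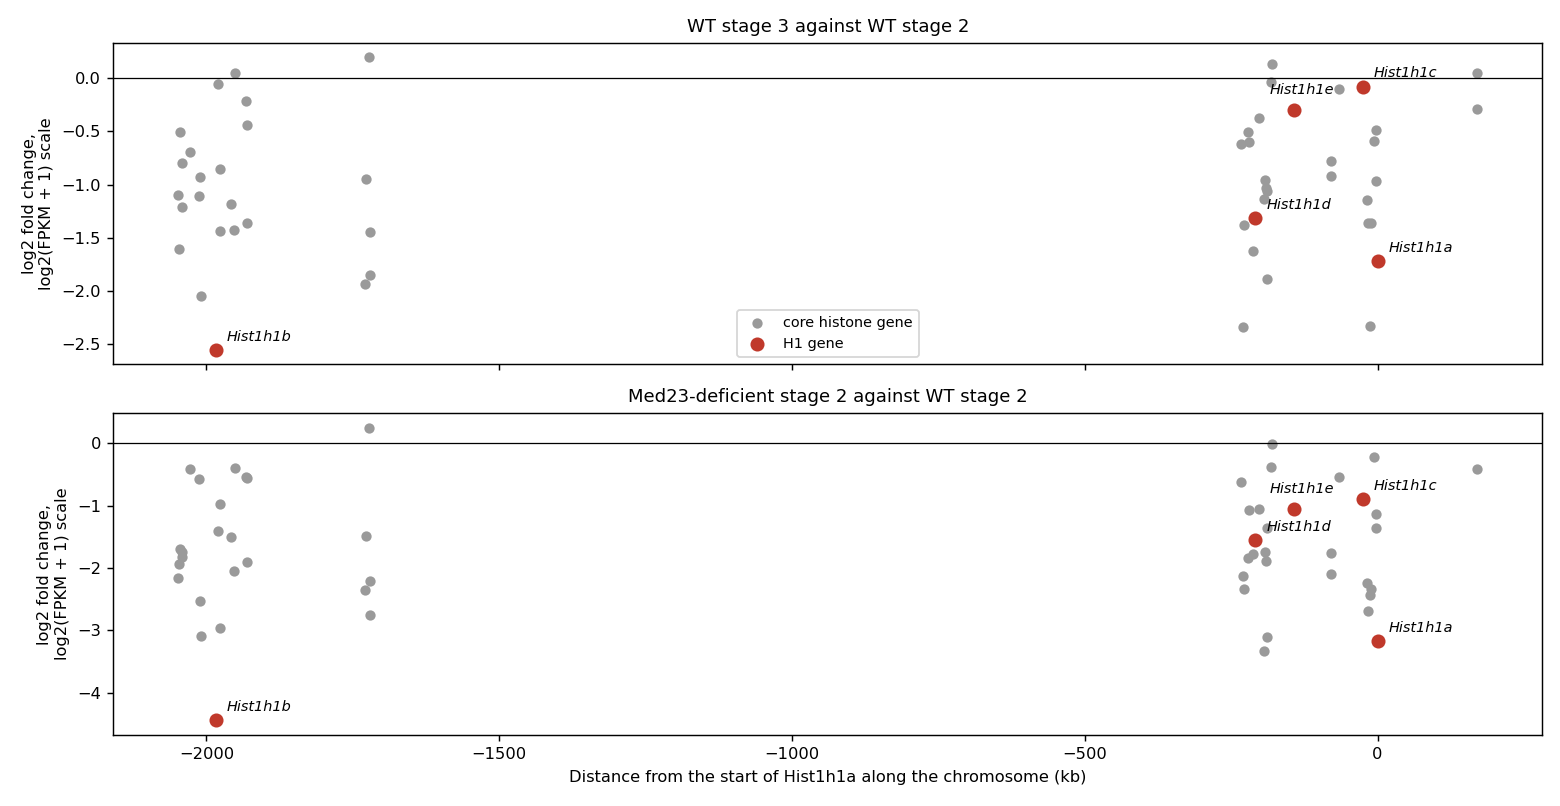
Log2 fold change of H1 genes (red, named) and core histone genes (grey) on chromosome 13 against the distance in kb from the start of Hist1h1a, for WT stage 3 (top) and deficient stage 2 cells (bottom) against WT stage 2; 1 core histone gene 27439 kb away is not drawn. Hist1h1b is lowest in both panels, and Hist1h1c and Hist1h1e lie nearer to 0 than Hist1h1a.

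Across the 9 libraries the members' log2(FPKM + 1) values were correlated to different degrees, which is a description over libraries that fall into 3 groups. Pearson's r was 0.92 for *Hist1h1a* with *Hist1h1b*, 0.92 for *Hist1h1b* with *Hist1h1d* and 0.78 for *Hist1h1a* with *Hist1h1d*. *Hist1h1e* had r of 0.91 with both *Hist1h1a* and *Hist1h1b*, 0.89 with *Hist1h1c* and 0.77 with *Hist1h1d*, so these values do not set *Hist1h1e* apart from the first 3 genes. *Hist1h1c* had r from 0.61 to 0.69 with *Hist1h1a*, *Hist1h1b* and *Hist1h1d*. *H1f0* had r from -0.39 to 0.24 with the replication-dependent members. Among 9655 other genes with a mean of at least 1 FPKM, those most like each member were *Adam10*, *Map1lc3b* and *Igsf3* for *Hist1h1a* (r from 0.95 to 0.99), *Hist1h2bq*, *Pus7* and *Hist1h2ac* for *Hist1h1b* (0.96), *Hmga1*, *Tcrg-C3* and *Cops7a* for *Hist1h1c* (0.94 to 0.95), *Ccnb2*, *Parp1* and *Ago1* for *Hist1h1d* (0.95 to 0.98), *Trak1*, *Pnp* and *Rdh11* for *Hist1h1e* (0.96 to 0.98) and *Lbh*, *Gsn* and *Prkaca* for *H1f0* (0.98 to 0.99). *Ccnb2* was of the mitosis list, and *Hmga1* and *Parp1* of the list of H1 chaperones and competitors.

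*H1fx* was above 0 in WT stage 2 replicate 3 (0.31 FPKM) and WT stage 3 replicate 2 (0.16 FPKM), and listed at 0 in the other 7 libraries, all 3 deficient ones among them. These levels give no fold, and its fitted values on the log2(FPKM + 1) scale, which enter the medians over the 7 members, are differences near 0. None of the 4 germline H1 genes listed (*Hist1h1t*, *H1fnt*, *H1foo* and *Hils1*) was in the table used here.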

How the data were processed

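RNA of 9 libraries was analysed. According to the methods, the authors used a stranded pico-input kit for total RNA, Trimmomatic 0.36, HISAT2 on mm10 and StringTie with GENCODE vM12, keeping reads at no more than 2 loci. The deposited table holds FPKM per gene and library, without counts, so no counting error can be given. Here log2(FPKM + 1) was fitted with limma 3.58.1 in R 4.3.3 (lmFit, eBayes with trend) on the 6 libraries of each comparison and all genes above 0 in at least 1, with Benjamini-Hochberg adjustment over all genes tested. The procedure was tested on simulated data. No value was imputed. Sequences came from RefSeq (promoters of all 7 members matched) and GENCODE vM21.

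The members and gene lists were chosen with earlier results of these data known. Named genes are the members, their neighbours in the histone cluster, the 3 most correlated genes of each expressed member, and per list the most abundant gene and up to 4 with an adjusted p of at most 0.05, besides *Med23*. Outside this rule, *Slbp*, *Npat*, *Cd79a* and *Hist1h2bg* were named after their values were seen. Alternatives changed the pseudocount, filter, scaling, model and libraries.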

Additional observations from a re-analysis of the deposited data

How the results depend on the processing

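Over 352 alternative values of single members, 282 kept their direction and side of the adjusted threshold, 53 no longer passed it, 11 newly passed it and 6 changed sign. *Hist1h1c* at stage 3 turned to 0.0078 with a common upper quartile, and to 0.018 or 0.046 when WT stage 2 replicate 1 or WT stage 3 replicate 3 was left out (range with 1 library left out -0.24 to 0.046). The fitted difference of *H1fx* at stage 3, near 0 and no measure of a fold, turned to 0.17 in a Ballgown-style fit and to 0.071 when WT stage 2 replicate 3 was left out (range -0.13 to 0.071), and *H1f0* in deficient cells to -0.088 in the Ballgown-style fit. The Ballgown-style estimates differ from those of limma only through the added term for the summed log expression of each library. The cause of the other changes of sign was not tested. *H1fx* could not be tested with a mean of at least 1 FPKM or without its only library above 0.

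At stage 3, 4 members passed fold and p, 2 in the Ballgown-style fit and 3 to 4 with 1 library left out. In deficient cells the 4 became 3 to 5. Against stage 3 the 2 became 1 in the Ballgown-style fit and 1 to 3 with 1 library left out. Members past the adjusted threshold numbered 1 at stage 3, but 2 with a pseudocount of 0.1 or 0.01 or all 9 libraries in one fit, 3 among genes of at least 1 FPKM, and 0 with an upper quartile, quantile or Ballgown-style fit or any library left out. The 2 in deficient cells became 1 with a pseudocount of 0.1 or an upper quartile, 4 among genes of at least 1 FPKM, and 0 on the TPM scale without *Gm23935*, with quantiles, without a trend, in the Ballgown-style fit or without any 1 library. The 2 against stage 3 became 1 with quantiles or without a trend, 0 on the TPM scale without *Gm23935* or in the Ballgown-style fit, and 0 to 1 with 1 library left out. The Ballgown-style fit called 5, 1 and 18 genes in the whole table, against 346, 44 and 278, and in the 2 comparisons with WT stage 2 it passed 5 and 6 mitosis genes and 4 and 24 core histone genes by fold and p, against 13, 11, 17 and 35. The TPM scale moved the median of genes of at least 1 FPKM to -0.14 and -0.16 against WT stage 2, less than any member change named as a fall.

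With the replicate number as a block, 0 members passed the adjusted threshold in each comparison (main 1, 2 and 2), and 19, 0 and 42 genes over the table. Deviations of same-numbered libraries correlated at 0.03 to 0.16, 0.0043 to 0.14 and 0.04 to 0.27, not over 0.1 in every pair, so the numbers were not taken as pairing. In the WT comparison alone every library correlated best with its own number.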
